A study of Danio rerio with 6 samples.

Results

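The proteasome subunit genes were examined in whole zebrafish embryos lacking functional Tars, the threonyl-tRNA synthetase that loads threonine onto its tRNA, and in their siblings. Genes were taken by symbol, as those named psma to psmg followed by a digit. Of the 34326 genes counted, 54 had such a symbol. Of these, 47 reached a mean of at least 1 count per 1000000 counted reads (CPM) over the 6 libraries, among 19194 genes that did. The 6 conditions were tars-/- embryos given gcn2 MO, perk MO or no injection, and sibling embryos given gcn2 MO, perk MO or no injection, each with 1 library of embryo RNA taken at 36 hours post-fertilization (hpf) and raised in a pigment inhibitor (PTU). The tars-/- embryos were homozygous for the S151* nonsense allele from a chemical mutagenesis screen, and the siblings, labelled wild type, came from the same litters. The mutant line was kept as heterozygotes. Whether the siblings included heterozygous embryos is not given in the sources used here. The morpholinos (MO), antisense oligonucleotides injected at the one-cell stage, were directed at gcn2, the kinase that senses uncharged tRNA, and at perk, the kinase that senses unfolded protein in the endoplasmic reticulum. How many embryos went into a library is not given in the sources used here, and no condition had a second library, so no difference between 2 libraries below has a replicate check.

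The proteasome is the cell's main machine for degrading ubiquitinated proteins. Its 20S core is a barrel of alpha rings (psma genes), which gate the entrance, around beta rings (psmb genes), which hold the proteolytic sites. The 19S regulatory particle caps the barrel, with a base of ATPases (psmc genes) that unfold the substrate and pull it in, and a lid (most psmd genes) that removes the ubiquitin chain. Other caps (psme genes) open the core without ATP, psmf1 encodes an inhibitor, and psmg1 to psmg3 and psmd5, psmd9 and psmd10 encode chaperones that assist assembly and are not part of the finished particle. One gene that the symbol rule took, psmc3ip, is not a proteasome gene: it encodes a partner of PSMC3 named after that interaction and known for its role in meiotic recombination. It was kept in the counts, and is named where it is the only gene of a count or the only exception to one.

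The libraries held between 29949451 and 47516784 counted reads, and the 20 most abundant genes took 14.4 to 16.2% of them. Transcripts of tars stood at 21.3, 33.9 and 37.3 CPM in the tars-/- libraries (gcn2 MO, perk MO, uninjected) and at 68.1, 95.9 and 71.6 CPM in the sibling libraries in the same order, with no overlap between the genotypes. All 11 tissue markers examined, from heart muscle to neutrophils, were present, as a whole embryo requires. In such bulk RNA, fewer cells of a type and less RNA per cell cannot be told apart. The tars-/- gcn2 MO and sibling perk MO libraries stood apart from the others. The cell cycle inhibitor gene cdkn1a reached 68.3 and 69.5 CPM in them, against 2.65 to 16.6 CPM in the other 4 libraries, and the neuronal gene elavl3 was lowest there, at 295 and 240 CPM against 373 to 603 CPM. The part of these differences in the proteasome values was not tested.

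Levels between genes were compared by deposited FPKM, which divides the reads by gene length. The constitutive beta genes stood highest, with a median of 117 FPKM over 7 genes, and psmb1 was the highest of them at a mean of 154 FPKM. The 7 ATPase genes had a median of 70.0 FPKM, with psmc5 at 85.5 FPKM and psmc1b at 32.8 FPKM. The 8 alpha genes had a median of 61.7 FPKM, between psma6b at 35.3 FPKM and psma8 at 121 FPKM, and the 9 lid genes had a median of 51.7 FPKM, between psmd11a at 14.1 FPKM and psmd3 at 83.3 FPKM. Grouped by symbol, the psma and psmb genes lay above the psmc and psmd genes per unit of length in every library. The latter group takes in the low base chaperones and psmc3ip, which are not part of the particle. By class, the ATPase median of 70.0 FPKM exceeded the alpha median of 61.7 FPKM. The median of 16 psma and psmb genes was 67.8 to 81.6 FPKM, and that of 23 psmc and psmd genes was 34.6 to 47.3 FPKM. The accessory genes were lower, with the core chaperones at 11.5 to 17.3 FPKM, the base chaperones at 8.70 to 9.19 FPKM and the inhibitor gene psmf1 at 5.06 FPKM. Of the activators, psme3, whose product caps the core in the nucleus, was the highest at 24.6 FPKM and psme4a the lowest at 0.323 FPKM.

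**Figure D1:**
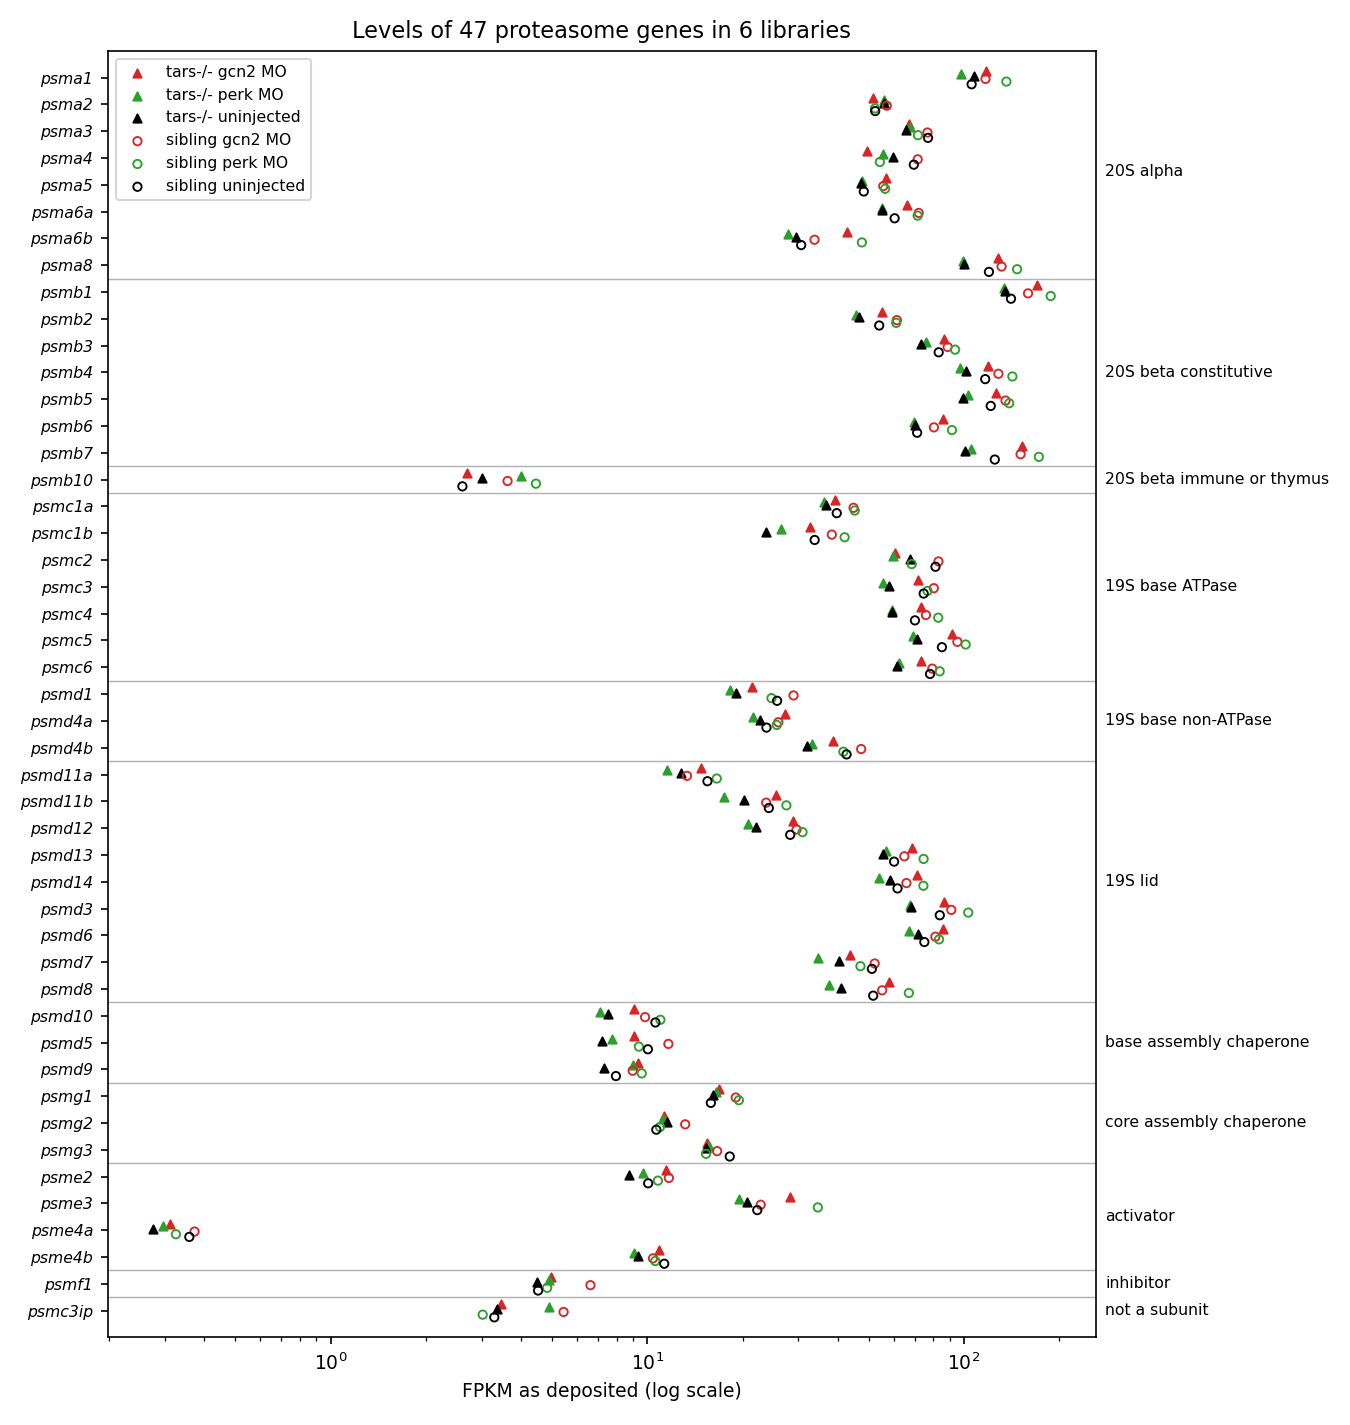
Deposited FPKM (log axis) of the 47 genes, 1 row per gene grouped by role, with 1 mark per library (filled triangles tars-/-, open circles siblings; red gcn2 MO, green perk MO, black uninjected). The constitutive beta genes as a class lie farthest right, with a median of 117 FPKM. By mean FPKM psme4a lies farthest left, followed by psmb10, psmc3ip and psmf1.

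The inducible beta genes were almost silent. These encode the catalytic subunits that replace the constitutive ones in immune cells or the thymus. Over all 6 libraries psmb8a had 1 read, psmb9a 44 reads, psmb11b 0 reads, psmb12 10 reads and psmb13a 3 reads, and psma6l, an alpha-like gene, had 69 reads. The count of 0 for psmb11b allows up to 3 reads in any library. Only psmb10, which in mammals replaces psmb7 in the immunoproteasome, passed the minimum, with a mean of 3.40 FPKM. The activator gene psme1 lay just below it, with 134 reads and 0.601 CPM, and the member just above it was psme4a with 2.26 CPM.

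Levels differed between the libraries, though not in the same order for each of the 47 genes. Summed over the 47 genes, the tars-/- level was 3753 CPM with gcn2 MO, 3061 CPM with perk MO and 3130 CPM without injection. In siblings the sum was 3965 CPM with gcn2 MO, 4153 CPM with perk MO and 3652 CPM without injection. The tars-/- perk MO and uninjected libraries were thus the lowest, the tars-/- gcn2 MO library overlapped the sibling range, and the sibling perk MO library was the highest. The 95% Clopper-Pearson intervals of these sums did not overlap, the widest being 4130 to 4176 CPM, but they cover counting error only, and the spread between libraries of 1 condition is unknown. Gene by gene, 3 of 47 genes were highest in the tars-/- gcn2 MO library and 0 in the other tars-/- libraries, while 15 were highest in the sibling gcn2 MO, 26 in the sibling perk MO and 3 in the sibling uninjected library. The lowest value fell in the tars-/- perk MO library for 24 genes and in the tars-/- uninjected library for 17, together 41 of 47. The share of all genes with their highest or lowest value in each library was not computed. Relative to each gene's mean log2 CPM over the 6 libraries, the median of all genes was -0.01 and -0.06 in these 2 libraries. That of the 47 genes was -0.22 and -0.19. The changes were small. The highest library exceeded the lowest by a median of 1.40-fold, from 1.11-fold for psma2 to 1.80-fold for psmc3ip.

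**Figure D2:**
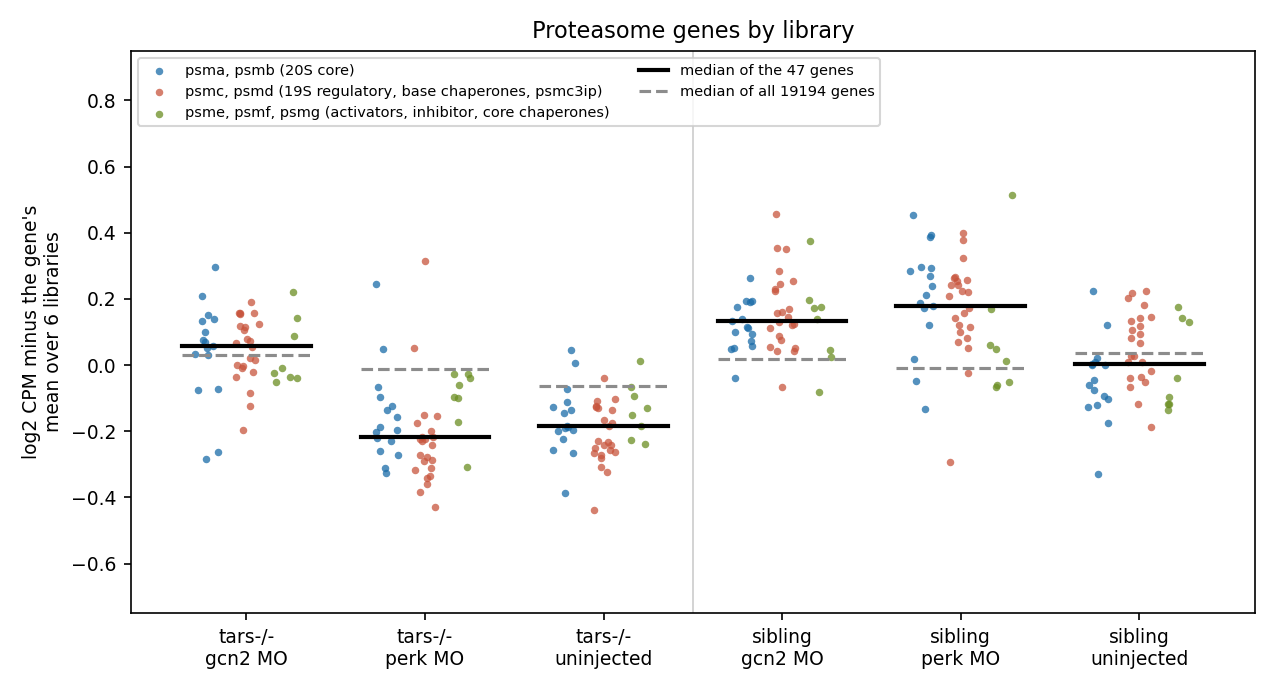
Each gene's log2 CPM (0.5 CPM added) minus its own mean over the 6 libraries, 1 point per gene, by library and gene class. Solid bars are the median of the 47 genes, at -0.22 and -0.19 in the tars-/- perk MO and uninjected libraries and 0.18 in the sibling perk MO library, and dashed bars are the median of all 19194 genes.

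The genotype was represented by 3 libraries on each side. It was fitted over all 6 libraries, with the injection as a term, by edgeR's quasi-likelihood test with Benjamini-Hochberg adjustment over all genes. The fit has 2 residual degrees of freedom, and counts any genotype effect that differs between injections as spread. It called 0 of the 47 genes at an adjusted p under 0.05, and 0% of all genes. At an unadjusted p under 0.05 it named 5 members, all lower in tars-/- embryos, or 10.6% of them, against 3.49% of all genes. DESeq2 also called 0 members after adjustment, while it called 0.995% of all genes. It put 2 members at an unadjusted p under 0.05, and the share of all genes at that cut is not given here. No single proteasome gene can therefore be said to differ by genotype at this replication. As a group, 44 of the 47 estimates were below 0, with a median log2 fold change of -0.17, while 50.6% of all genes were below 0 with a median of -0.003. The regulatory genes gave a median of -0.26, with 22 of 23 below 0 (the exception was psmc3ip), and the core genes -0.14, with 15 of 16 below 0. The median over the 47 genes was -0.10 without the perk MO pair, -0.22 without the gcn2 MO pair and -0.25 without the uninjected pair.

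The 5 genes with an unadjusted p under 0.05 all belonged to the regulatory particle or its chaperones, and the first was psmd1 (ENSDARG00000003189), the large scaffold subunit of the base. It had 149, 127 and 132 CPM in tars-/- embryos given gcn2 MO, perk MO or no injection, against 201, 172 and 179 CPM in siblings given the same. Every tars-/- value was below every sibling value. The log2 fold change was -0.40 with a standard error of 0.12 and an edgeR adjusted p of 0.936. The ATPase gene psmc1b (ENSDARG00000043561) had 49.3, 40.0 and 35.7 CPM in the tars-/- libraries, against 57.6, 63.2 and 50.9 CPM in the sibling libraries. Here too the genotypes did not overlap, although the tars-/- gcn2 MO value came close to the sibling uninjected one, and the log2 fold change was -0.43 with a standard error of 0.14. The others were psmd4b, a ubiquitin receptor (log2 fold change -0.31), psmd7, which forms the lid's deubiquitinase pair with psmd14 (-0.31), and psmd5, a base chaperone (-0.34).

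The genotypes did not overlap for 12 of the 47 genes (25.5%), all lower in tars-/- embryos, where 4.65% of all genes had all 3 tars-/- libraries below all 3 sibling libraries. None was the other way round, where 3.61% of all genes were. The 12 were psma3, psmc1a, psmc1b, psmc2, psmc3, psmc6, psmd1, psmd4b, psmd5, psmd7, psmd10 and psme4a. They took in 5 of the 7 ATPase genes, and 10 of the 12 were psmc or psmd genes, while only psma3 belonged to the core. With TMM or DESeq2 scaling the count was 10 or 11 genes, against 3.50% or 3.61% of all genes, of which 8 or 9 were psmc or psmd genes and 1 was a core gene. The ATPase genes among them then numbered 3 or 4.

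In uninjected embryos the proteasome genes were slightly lower in tars-/- embryos than in siblings. The median log2 ratio of CPM, with 0.5 CPM added to each value, was -0.22, and 41 of the 47 genes were lower. All genes together had a median of -0.11 in this pair, and with TMM scaling, which moves that median to 0.001, the proteasome median was -0.10 with 31 genes lower. None reached a 1.5-fold difference in either direction, the size used here in place of a test, against 5.52% of all genes lower and 2.89% higher. At 1.25-fold, a threshold added after the values had been seen, 10 genes (21.3%) were lower, near the 20.6% of all genes. The ends of the range were psmc1b, with a CPM ratio of 0.701 (95% interval 0.653 to 0.753, for counting error only), and psmb10, with 6.40 CPM in tars-/- and 5.54 CPM in sibling embryos and a ratio of 1.16 whose interval of 0.956 to 1.40 includes no change. The ATPase genes (7 of 7), the lid genes (9 of 9) and the constitutive beta genes (7 of 7) were all lower on library totals, with medians of -0.26, -0.28 and -0.20.

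With gcn2 MO in both genotypes, the members lay about as far below genes at large as they did without injection. They had a median log2 ratio of -0.10, beside 0.02 for all genes, a distance of -0.11 in both pairs, with 31 of 47 genes lower in tars-/- embryos. None was 1.5-fold apart, against 6.2% of all genes lower and 7.66% higher, and 7 genes (14.9%) were at least 1.25-fold lower against 17.1% of all genes. The lid genes were on balance not lower here, with 6 of 9 higher and a median of 0.08, whereas the 7 ATPase genes were all lower with a median of -0.17. Among genes of at least 5 CPM (psmc3ip, below that, had a log2 ratio of -0.58), the lowest was the alpha gene psma4 (ENSDARG00000045928), at 71.7 CPM in tars-/- and 103 CPM in sibling embryos, a ratio of 0.694 (0.658 to 0.731). The highest was psma6b (ENSDARG00000013966), an alpha gene with a duplicate, at 47.9 CPM in tars-/- and 37.9 CPM in sibling embryos, a ratio of 1.26 (1.17 to 1.36).

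With perk MO in both genotypes, the gap was the widest of the 3 and exceeded that of genes at large. The median log2 ratio was -0.40, beside 0.003 for all genes, with 41 of 47 genes lower in tars-/- embryos. At least 1.5-fold lower were 8 genes (17.0%), against 8.12% of all genes, and 28 genes (59.6%) were at least 1.25-fold lower, against 20.3% of all genes. Only psmc3ip was 1.5-fold higher, against 11.3% of all genes. The lid gene psmd8 (ENSDARG00000020454) was at 70.0 CPM in tars-/- and 125 CPM in sibling embryos, a ratio of 0.561 (0.535 to 0.588). The activator gene psme3 (ENSDARG00000012234) was at 42.8 and 76.1 CPM in the same order, a ratio of 0.563 (0.530 to 0.598), and psma6b at 31.3 and 53.5 CPM, a ratio of 0.585 (0.545 to 0.629). All 9 lid genes, 7 ATPase genes and 7 constitutive beta genes were lower, with medians of -0.51, -0.47 and -0.43. The core chaperone psmg1 was also lower, at -0.23, while the core chaperones psmg2 and psmg3 and the inhibitor gene psmf1 lay between 0.02 and 0.03. The sibling library of this pair is the one that stood apart and in which the members were highest; cdkn1a was at 16.6 CPM in the tars-/- and 69.5 CPM in the sibling library.

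**Figure D3:**
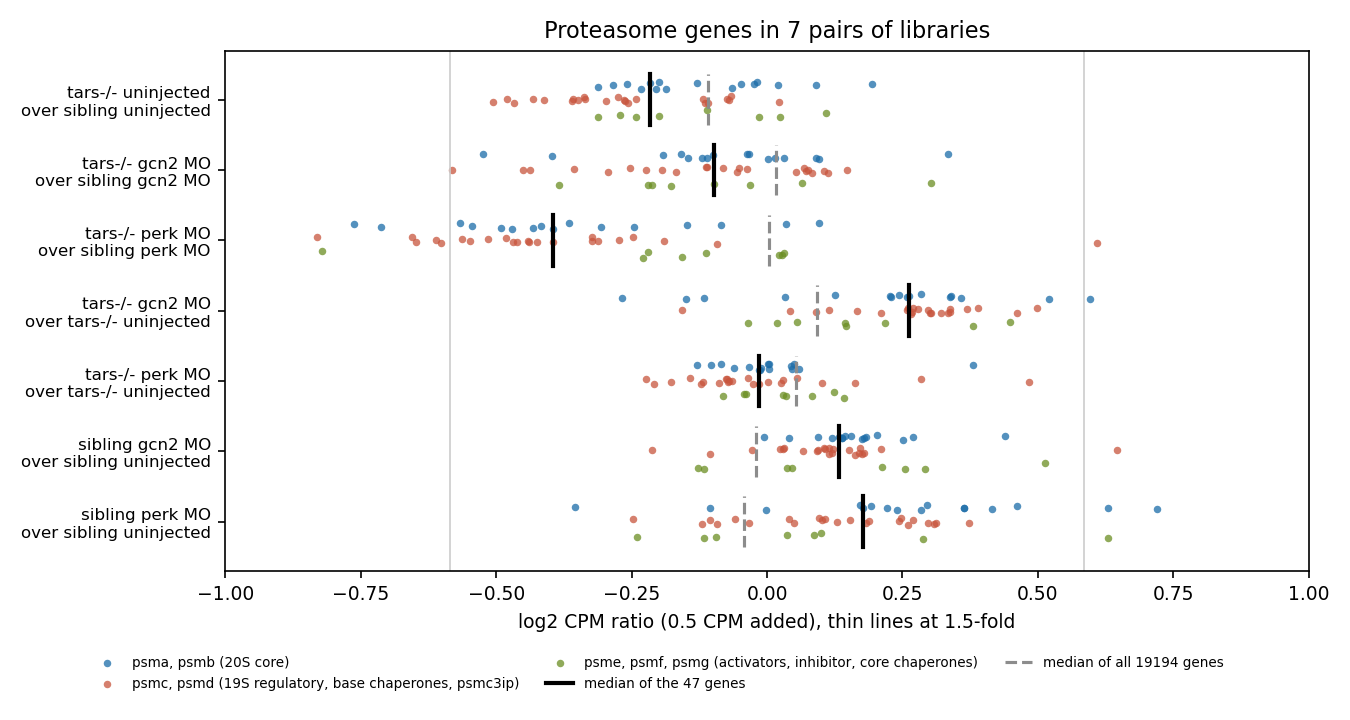
Log2 CPM ratios (0.5 CPM added) of the 47 genes in the 7 pairs of libraries, 1 point per gene, with the solid bar at the median of the 47 genes, the dashed bar at the median of all 19194 genes and thin lines at 1.5-fold. The median is farthest left, at -0.40, for tars-/- perk MO over sibling perk MO, and farthest right, at 0.26, for tars-/- gcn2 MO over tars-/- uninjected.

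The libraries given each morpholino were then compared with the uninjected library of the same genotype. No library came from embryos given a control morpholino, so knockdown of the target and the injection itself cannot be told apart. In tars-/- embryos, gcn2 MO went with higher levels of most proteasome genes. The median log2 ratio over uninjected tars-/- embryos was 0.26, beside 0.09 for all genes, with 42 of 47 genes higher (37 of 47 with TMM scaling, where the median was 0.16). Only psmb7 reached 1.5-fold, against 12.9% of all genes, and 0 genes were 1.5-fold lower, against 8.21%. At 1.25-fold, 14 genes (29.8%) were higher, near the 28.9% of all genes. The gene psmb7 (ENSDARG00000037962), which encodes the catalytic subunit with trypsin-like activity, was at 189 CPM with gcn2 MO and 125 CPM without, a ratio of 1.51 (1.46 to 1.57). The genes that were lower with gcn2 MO were psma4, psmc2, psma2, psmb10 and psmg2. All 9 lid genes and 7 constitutive beta genes were higher, with medians of 0.30 and 0.28. In the same pair cdkn1a stood at 68.3 CPM with gcn2 MO and 7.56 CPM without, and asns, a target of the amino acid response, at 88.2 and 223 CPM.

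With perk MO, tars-/- embryos were close to uninjected tars-/- embryos in these genes. Their median log2 ratio was -0.01, beside 0.05 for all genes, with 21 genes higher and 26 lower (10 higher with TMM scaling, where the median was -0.07). None was 1.5-fold apart, against 5.45% of all genes higher and 2.86% lower, and 0 were 1.25-fold lower against 10.5% of all genes. The lowest gene was psmd7, at 56.5 CPM with perk MO and 66.0 CPM without, a ratio of 0.856 (0.809 to 0.905). The highest subunit gene was psmb10, at 8.48 CPM with perk MO and 6.40 CPM without, a ratio of 1.32 (1.12 to 1.57).

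In siblings, gcn2 MO gave a small upward displacement. Relative to uninjected siblings the median log2 ratio was 0.13, beside -0.02 for all genes, with 41 of 47 genes higher. Only psmc3ip reached 1.5-fold, against 3.8% of all genes, and 0 genes were 1.5-fold lower, against 6.52%. At 1.25-fold, 3 genes (6.38%) were higher, against 12.9% of all genes. The inhibitor gene psmf1 (ENSDARG00000022652) was highest among the genes of at least 5 CPM, at 8.51 CPM with gcn2 MO and 5.82 CPM without, a ratio of 1.46 (1.23 to 1.74). The lowest was the lid gene psmd11a, at 56.0 CPM with gcn2 MO and 65.0 CPM without, a ratio of 0.862 (0.812 to 0.914).

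With perk MO, siblings showed a larger displacement that was uneven across classes. The median log2 ratio was 0.18, beside -0.04 for all genes, with 35 of 47 genes higher. The genes at least 1.5-fold higher were psmb10, psme3 and psma6b (6.38%), against 9.08% of all genes, and 0 were 1.5-fold lower, against 14.8%. At 1.25-fold, 8 genes (17.0%) were higher, against 20.2% of all genes. The gene psmb10 (ENSDARG00000043781) was at 9.45 CPM with perk MO and 5.54 CPM without, a ratio of 1.71 (1.43 to 2.05), psme3 at 76.1 and 49.0 CPM, a ratio of 1.55 (1.46 to 1.65), and psma6b at 53.5 and 34.4 CPM, a ratio of 1.55 (1.45 to 1.67). All 7 constitutive beta genes were higher, with a median of 0.28. The 3 psmd genes classed as base subunits (psmd1 and the duplicates psmd4a and psmd4b) had a median of -0.03. They are not all of the base subunits other than ATPases. The ubiquitin receptor gene adrm1, which the symbol rule does not take, was at 133 CPM with perk MO and 111 CPM without, a ratio of 1.20 (1.14 to 1.25). The level of cdkn1a was 69.5 CPM with perk MO and 2.65 CPM without.

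The gcn2 MO effect in tars-/- embryos and the perk MO effect in siblings were measured in pairs with no library in common, and both injected libraries were those that stood apart. Of the 47 genes, 33 (70.2%) were higher with the morpholino in both pairs, against 38.4% of all genes, and 3 were lower in both. As 42 and 35 were higher in the pairs taken singly, the count of 33 shows little beyond the separate shifts. The 3 were psma4, psmc2 and psma2. Between perk MO in tars-/- embryos and perk MO in siblings, which also share no library, 21 genes were lower in the first pair and higher in the second. Taken singly, 26 genes were lower in the first pair and 35 higher in the second. The share of all genes that did both was not computed, so the count of 21 is not read as a result about the members.

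**Figure D4:**
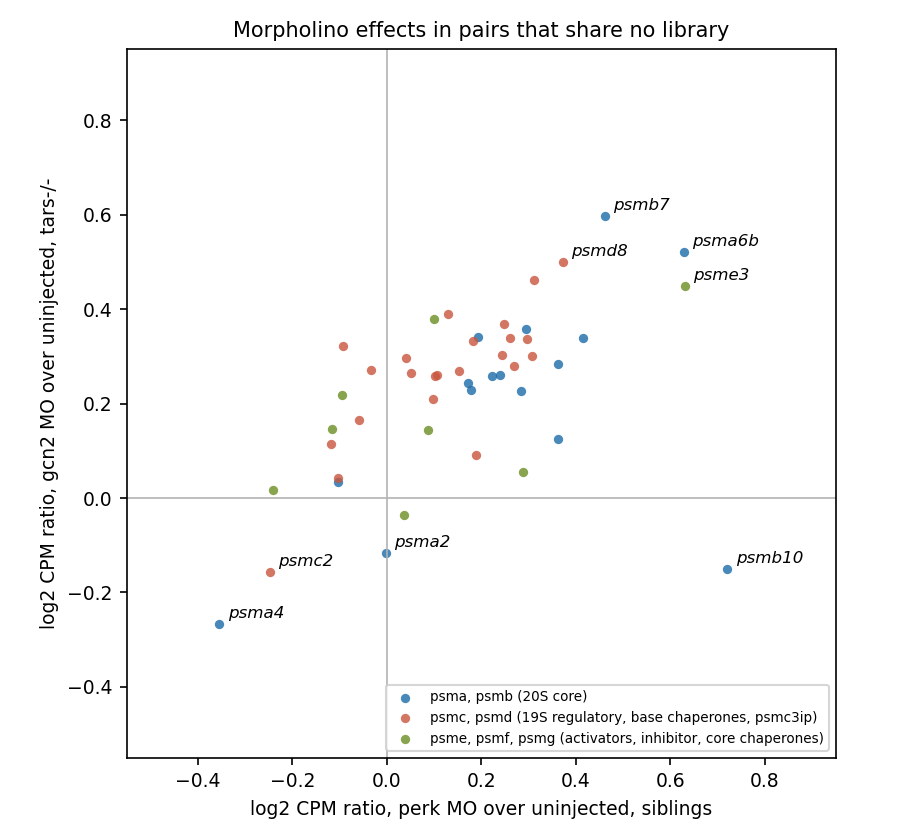
For each of the 47 genes, the log2 CPM ratio of gcn2 MO over uninjected in tars-/- embryos (vertical) against that of perk MO over uninjected in siblings (horizontal), with lines at 0. Of the genes, 33 lie in the upper right part, with psmb7, psma6b and psme3 farthest out, and psma4, psmc2 and psma2 lie at or below 0 on both axes.

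The alpha gene psma4 and the ATPase gene psmc2 departed from the pattern of most members, and were picked out after their values had been seen. The level of psma4 was 71.7, 80.4 and 86.4 CPM in tars-/- embryos given gcn2 MO, perk MO or no injection, and 103, 78.5 and 101 CPM in siblings given the same. It was thus lowest in the tars-/- gcn2 MO and sibling perk MO libraries, where most members were higher than without injection. The level of psmc2 was 88.4, 87.1 and 98.6 CPM in tars-/- embryos, and 121, 99.5 and 118 CPM in siblings. In both genotypes it was lower with perk MO than without. On library totals it was higher in every sibling library than in any tars-/- one, but with TMM or DESeq2 scaling the genotypes overlapped. The alpha genes psma2 (45.7 to 50.6 CPM over the 6 libraries) and psma3 (83.2 to 97.8 CPM) varied little.

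Core and regulatory genes moved together in most pairs. The summed core level was 0.830, 0.857 and 0.832 times the summed regulatory level in tars-/- embryos given gcn2 MO, perk MO or no injection, and 0.799, 0.830 and 0.768 times in siblings given the same. In each injection state the tars-/- library had the higher ratio, and uninjected siblings had the lowest ratio of all. The classes differed most in their medians for sibling perk MO over uninjected, at 0.26 for the core and 0.13 for the regulatory genes, and for tars-/- over sibling uninjected embryos, at -0.16 for the core and -0.28 for the regulatory genes. In the other 5 pairs the medians differed by at most 0.06. Without psmc3ip, the base chaperones and psmb10, a choice made after the values had been seen, these 2 differences were both 0.09. Without a minimum level, the difference was 0.06 for sibling perk MO over uninjected and 0.13 for tars-/- over sibling embryos given perk MO, so which pair differed most depended on the genes counted. The ranges of the classes overlapped in all 7 pairs.

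The catalytic beta genes moved in the same direction in most pairs, but by different amounts. In tars-/- embryos given gcn2 MO, perk MO or no injection, psmb5, which encodes the chymotrypsin-like subunit, was at 165, 134 and 130.2 CPM, against 177, 182 and 159 CPM in siblings. The gene of the caspase-like subunit, psmb6, was at 108, 87.5 and 88.4 CPM, against 101, 115 and 89.5 CPM in siblings. The third, psmb7, was at 189, 130.1 and 125 CPM, against 187, 214 and 155 CPM. All were higher with gcn2 MO than without in both genotypes, and higher with perk MO in siblings, whereas in tars-/- embryos perk MO gave ratios of 0.990 to 1.04 over the uninjected level. Of the 3, psmb7 had the widest range over the libraries, at 1.71-fold, against 1.39-fold for psmb5 and 1.32-fold for psmb6.

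The activators differed from each other. The level of psme3 was 62.1, 42.8 and 45.3 CPM in tars-/- embryos given gcn2 MO, perk MO or no injection, against 50.2, 76.1 and 49.0 CPM in siblings. It was highest in the 2 libraries that stood apart and within 42.8 to 50.2 CPM in the other 4. The level of psme2, whose product forms a cap with that of psme1, was 19.5, 16.5 and 14.9 CPM in tars-/- embryos, against 19.96, 18.4 and 17.2 CPM in siblings. The large cap gene psme4b was at 80.6, 67.2 and 69.2 CPM in tars-/- embryos, against 77.1, 78.3 and 83.6 CPM in siblings. Its sister psme4a stayed between 1.92 and 2.60 CPM. The core chaperones had narrow ranges over the libraries. For gcn2 MO over uninjected siblings, however, 2 of the 3 were higher and 1 lower, with a median log2 ratio of 0.26. The median of the 47 genes in that pair was 0.13. In tars-/- embryos psmg1 was at 22.3, 22.0 and 21.5 CPM, against 25.3, 25.9 and 21.1 CPM in siblings, and psmg2 (11.5 to 14.2 CPM) and psmg3 (12.5 to 14.8 CPM) had ranges of 1.23-fold and 1.19-fold over the 6 libraries.

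Several members are duplicated in the zebrafish, and the copies did not always move together. Of the summed FPKM of psma6a and psma6b, psma6b held 39.2, 33.5 and 34.9% in tars-/- embryos given gcn2 MO, perk MO or no injection, and 31.9, 40.0 and 33.7% in siblings. Its share was thus highest in the libraries that stood apart. The share of psmc1b in its pair was 45.5, 42.4 and 39.2% in tars-/- embryos and 46.1, 48.2 and 46.0% in siblings, lower in every tars-/- library. The share of psmd4b was 58.5 to 60.6% in tars-/- embryos and 61.9 to 64.6% in siblings. The shares of psmd11b (60.2 to 64.0%) and psme4b (96.6 to 97.2%) were nearly constant. How reads that match both copies were counted is not given in the sources used here, so the split between copies is uncertain.

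The members varied less among themselves than all genes between 10 CPM and the level of the highest member, a band that includes the members. For the 43 members of at least 10 CPM, the interquartile range of the log2 ratios was 0.11 to 0.30 over the 7 pairs, against 0.28 to 0.56 for the 9763 genes between 10 CPM and the highest member. It was smaller in all 7 pairs, from 0.21 against 0.28 for tars-/- over sibling uninjected embryos to 0.15 against 0.50 for gcn2 MO over uninjected tars-/- embryos. The genes of the band were not matched to the members in level. Counting error is larger near 10 CPM, and its part in the difference was not tested.

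Genes that work with the proteasome were listed apart from these. Of 49 listed symbols 41 were matched and 35 analysed. Of these, the edgeR genotype fit called 0 after adjustment, against 0% of all genes. At an unadjusted p under 0.05 it named 4, against 3.49% of all genes. DESeq2 called 2 after adjustment, nfe2l2b and mhc1uba, against 0.995% of all genes. Of the further subunits and control factors, the ubiquitin receptor gene adrm1 was at 116, 98.8 and 100.2 CPM in tars-/- embryos given gcn2 MO, perk MO or no injection, against 133, 133 and 111 CPM in siblings. The tars-/- perk MO and uninjected libraries were again the lowest. The factor nfe2l3, of the family whose member NFE2L1 raises proteasome gene transcription in mammals, was at 107, 79.9 and 83.9 CPM in tars-/- embryos, against 112, 117 and 116 CPM in siblings. Its relatives differed from each other. The more abundant NFE2L1 copy, nfe2l1b, was at 31.8, 22.6 and 32.0 CPM in tars-/- embryos, against 26.6, 30.9 and 37.1 CPM in siblings, and the genotypes overlapped. The level of nfe2l1a was 2.36, 4.90 and 3.69 CPM in tars-/- embryos, against 1.41, 2.04 and 1.57 CPM in siblings. That of nfe2l2b, one of 2 zebrafish copies of the oxidative stress factor Nrf2, was 11.9, 34.0 and 21.0 CPM, against 5.34, 7.78 and 4.45 CPM. The more abundant copy, nfe2l2a, was at 56.0, 82.4 and 76.4 CPM in tars-/- embryos, against 50.2, 46.6 and 62.2 CPM in siblings. Its genotypes overlapped, and its log2 fold change was 0.46. Neither nfe2l1a nor nfe2l2b passed the edgeR test after adjustment, with log2 fold changes of 1.12 (adjusted p = 0.490) and 1.88 (adjusted p = 0.243). The genotypes did not overlap for either. They were the only 2 of 11 further subunits and control factors at least 1.5-fold apart without injection. Both were higher in tars-/- embryos, as were 2.89% of all genes at that fold, while 5.52% were lower.

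Of 17 delivery factors and partners measured, 13 were lower in tars-/- than in sibling embryos without injection, with a median log2 ratio of -0.10 that is no lower than the -0.11 of all genes, and 12 with perk MO, with a median of -0.19 beside 0.003 for all genes. The segregase gene vcp, which extracts ubiquitinated proteins for the proteasome, was at 455, 373 and 399.6 CPM in tars-/- embryos, against 513, 509 and 534 CPM in siblings, without overlap. The deubiquitinase gene uchl5 was at 43.6, 34.1 and 32.8 CPM, against 46.9, 45.3 and 42.9 CPM. With gcn2 MO the tars-/- value lay within the sibling range for uchl5 and below it for vcp. Of 13 antigen presentation genes, 7 passed the minimum. Without injection, 5 of these were lower in tars-/- embryos and 2 higher, with a median log2 ratio of -0.13 beside -0.11 for all genes. In that pair 2.89% of all genes were at least 1.5-fold higher and 5.52% lower. Of the 7, only mhc1uba, a class I gene, was at least 1.5-fold apart. It was at 3.45, 6.69 and 17.4 CPM in tars-/- embryos, against 1.02, 1.40 and 1.42 CPM in siblings. The inducible beta gene psmb10 showed no such order.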

How the data were processed

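RNA of whole embryos was sequenced with 1 library per condition. The authors aligned reads with HISAT2 2.0.5 to the zebrafish assembly GRCz10, counted them with HTSeq, and deposited for each gene a read count, a length and an FPKM value, per library. The deposited counts are not normalized, and FPKM equals the count divided by that length in kilobases and by the library's counted reads, scaled to 1000000 reads. How strand and multiply matching reads were treated is not given in the sources used here. The genes, lists and thresholds were chosen with earlier results of these data known. Counts were scaled to CPM by library totals, and genes with a mean under 1 CPM were left out. Pairs of libraries were compared by log2 ratios with 0.5 CPM added, understating low genes, and a fold of 1.5 stood in for a test. Intervals of ratios are exact (Clopper-Pearson) at 95% and cover counting error only. The genotype was tested with edgeR 4.0.16 (R 4.3.3, TMM, injection as a term), with DESeq2 1.42.0 as an alternative; both were tested on simulated data. The 3 libraries of a genotype differ in injection, which the fit takes out as a term. The p-values thus weigh the genotype effect against its own spread between injections, library differences included. Genes named per pair were up to 3 members in each direction with at least 5 CPM and 1.5-fold, or else the extremes, and beside them the catalytic, inducible, activator and chaperone genes and the class extremes. Alternatives were other scalings, pseudocounts, filters and omitted pairs. Promoter and protein sequences were not used here. Gene symbols are those of the files.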

Additional observations from a re-analysis of the deposited data

Results flagged for a closer look

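The genotype contrast ran in opposite directions under the morpholinos for some members, and 2 of them were flagged. With gcn2 MO, 16 of 47 genes were higher in tars-/- embryos, and all of these were lower with perk MO. Taken singly, 41 of 47 were lower with perk MO. The share of all genes that did both was not computed, so the count of 16 is not read as a result about the members. Each pair holds 1 of the 2 libraries that stood apart, on the tars-/- side with gcn2 MO and on the sibling side with perk MO. The gene psmc3ip, below 5 CPM and not flagged, had log2 ratios of -0.58 with gcn2 MO and 0.61 with perk MO. For psma6b the log2 ratio of tars-/- over sibling embryos was 0.33 with gcn2 MO and -0.76 with perk MO, a difference of 1.097. For psme3 it was 0.30 with gcn2 MO and -0.82 with perk MO, a difference of 1.124. For the members as a whole, the median log2 ratio of perk MO over uninjected embryos was -0.01 in tars-/- embryos and 0.18 in siblings, a difference of -0.1925. In tars-/- embryos 21 genes were higher and 26 lower on library totals, but 37 lay below the median of all genes. With TMM scaling 10 were higher, so the split depended on the scaling. Each of these effects rests on 1 library per condition, so none of the differences was tested.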

How the results depend on the processing

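None of the medians, core minus regulatory differences and named gene ratios followed here changed direction under the alternatives run. Single members did: in the uninjected genotype pair 6 were higher on library totals, 16 with TMM and 14 with DESeq2 size factors. The core minus regulatory difference of every pair stayed within its spread over genes. This held also without psmc3ip, the base chaperones and psmb10, an alternative added after seeing the data. Scaling mattered in the tars-/- uninjected pairs. Over sibling uninjected embryos the member median was -0.1002 with TMM and -0.1110 with DESeq2 size factors, gcn2 MO over uninjected tars-/- embryos gave 0.1609 and 0.1612, and perk MO over uninjected tars-/- embryos gave -0.0689 and -0.0703. Measured from the median of all genes, these 3 shifted by less than 0.01. With gcn2 MO in both genotypes TMM and DESeq2 scaling put 1 member, psmc3ip, at 1.5-fold lower, and gcn2 MO over uninjected tars-/- embryos then had 0 at 1.5-fold higher. The counts that rest on psmc3ip became 0 with 2 CPM added or a minimum of 5 CPM, and without a minimum 1 gene of few reads was 1.5-fold lower in the uninjected genotype pair, the gcn2 MO genotype pair and the sibling perk MO pair. At the 1.25-fold threshold the counts were 10, 7, 28, 14, 0, 3 and 8 in the order of the pairs as described. The genotype fit called 191 genes with DESeq2, 2 without a minimum, 285 without the gcn2 MO pair and 133 without the perk MO pair, and 0 members in any of them. Few of all genes were called in these fits, so the 0 is not read as a result about the members. Members at an unadjusted p under 0.05 numbered 2 with DESeq2, 2 without a minimum, 0 without the uninjected pair and 3 without the perk MO pair. The share of all genes at that cut is not given here for these fits, so the counts are not read as results about the members. The median log2 fold change of the members was -0.2514 without the uninjected pair and -0.0992 without the perk MO pair. The causes were not tested beyond what dropping libraries or genes itself changes. The labels give no replicate numbers, and libraries were paired across genotypes by injection alone, through the injection term. Without that term 7 members had an unadjusted p under 0.05 and 0 an adjusted one, again with no share of all genes given here. The promoter motif description was not run. With 1 library per condition, depth limits only the genes of few reads, and library differences limit the rest.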
